A study of Drosophila melanogaster with 9 samples.

Results

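The 8 genes described here encode proteins that read, write or organise heterochromatin in Drosophila melanogaster. They are HP1a, HP1b and HP1c, which encode heterochromatin protein 1 (HP1) family members and of which HP1a is Su(var)205's common name and the one used here, Su(var)3-9 and egg, which encode methyltransferases for lysine 9 of histone H3, Su(var)3-7 and ADD1, which encode HP1 partner proteins, and Pof, which encodes the protein that coats chromosome 4. They were taken by name from a list and are 8 of the 17611 genes in the count files. All 8 passed the filter on low counts in each of the 3 comparisons made.

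In heterochromatin, methyltransferases place methyl groups on lysine 9 of histone H3, the chromodomain of HP1 proteins binds that mark, and HP1 in turn recruits further methyltransferase and partner proteins, so that compact, mostly silent chromatin forms around the centromeres, at telomeres and along chromosome 4. Many of these genes were found as suppressors of position-effect variegation, the patchy silencing of a gene placed next to heterochromatin, and the silencing depends on their dose. Genes on chromosome 4 are expressed although they lie in such chromatin, and Pof binds them.

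Polyadenylated RNA from whole larvae of the first instar was sequenced in 3 groups of 3 libraries: wild-type males, males of the genotype roX1[ex6] roX2[9-4], which are called roX-KO males here, and wild-type females. The noncoding RNAs roX1 and roX2 are part of the MSL complex, which raises transcription of the single male X, and the series asks what these RNAs do in transcription. The labels name no fly stock, rearing batch or number of larvae for a library and give no separate cultures for the replicates, so the p-values below measure only the spread between these libraries. The protocol text names male larvae also for the female libraries, whose sex is given by their titles and sex label. The sample numbers of the female libraries are not consecutive with those of the male libraries. A difference between the sexes and a difference in preparation between these sets of libraries cannot be told apart. In roX1, wild-type males had 4964 to 6002 counts, roX-KO males 52 to 68 and wild-type females 314 to 440, and in roX2 the ranges were 150 to 181, 0 and 3 to 6.

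Counts in genes came to between 17318293 and 18020359 per library. A further 45.7% to 47.9% of the reads listed were assigned to no feature, and 1.19% to 1.36% were ambiguous between genes. Markers of neurons, body wall muscle, larval cuticle, dividing cells and germline were all detected in every group. In bulk RNA of whole larvae, fewer cells of a type and less RNA per cell cannot be told apart. Levels are given as CPM, counts scaled to a common library size with TMM factors.

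Libraries also differed in how their counts spread over short and long genes, which touches the long members of the list. Over the arms 2L, 2R, 3L and 3R, the median log2 CPM deviation of 1614 genes with over 4000 exon bases minus that of 1509 genes with up to 1000 was 0.01 and 0.02 in wild-type male libraries 1 and 3. It was -0.49 in wild-type male library 2, and -1.25 in wild-type female library 3 against 0.26 and 0.18 in the other female libraries. In the 3 roX-KO libraries it was 0.38, 0.41 and 0.36. Long genes were thus low in 1 wild-type male and 1 wild-type female library and high in every roX-KO library. Between roX-KO and wild-type males the median log2 fold rose from -0.18 in the shortest class to 0.35 in genes over 6000 bases. After these values were seen, each comparison was also fitted with a smooth length trend removed from every library, and those values stand beside each member's result that changed its call, or that passed and moved by over 1.5 times.

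**Figure D1:**
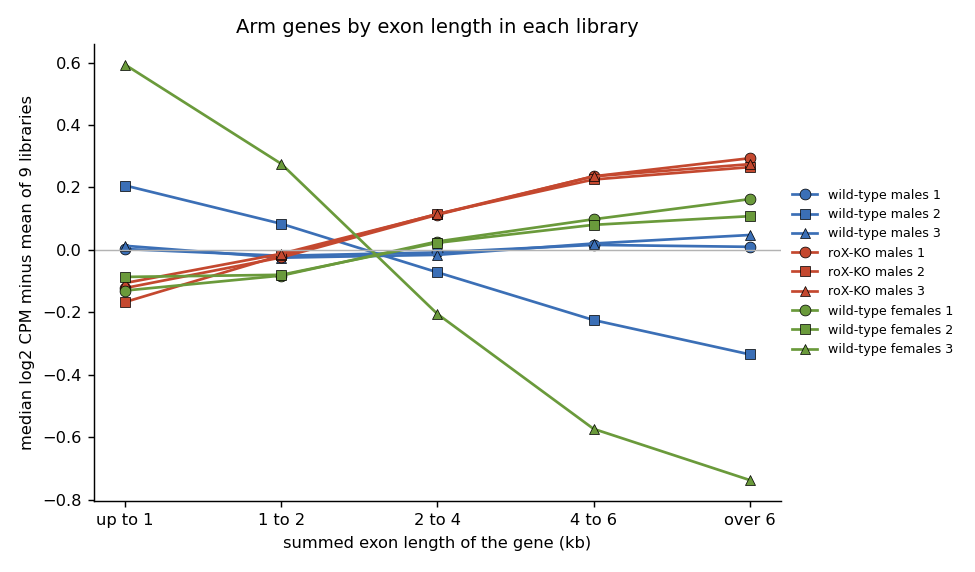
Median deviation of log2 CPM from the mean of the 9 libraries (y axis) for autosomal arm genes in 5 classes of summed exon length in kb (x axis), 1 line per library. Wild-type female library 3 and wild-type male library 2 fall with length, and the 3 roX-KO libraries rise to between 0.27 and 0.29 in the longest class.

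The 8 genes lie on the arms 2L, 2R and 3R and on the X in the dm6 genome. HP1a lies on 2L at 8209626 to 8211122 on the minus strand, HP1c on 3R at 22745620 to 22746605 on the plus strand, and HP1b on the X at 9081063 to 9082746 on the plus strand. Su(var)3-9 lies on 3R at 15259864 to 15263458 on the minus strand and Su(var)3-7 on the same arm at 13264364 to 13270038 on the plus strand. The other members are on 2R: ADD1 at 11970686 to 11977721 and Pof at 24669397 to 24671577 on the plus strand, and egg at 24775534 to 24779901 on the minus strand, 104 kb from Pof. All are protein-coding. Summed exon lengths ran from 986 bases in HP1c to 6170 in ADD1, and Su(var)3-7 was the next longest with 5051.

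Part of the reads over some members could be assigned to more than 1 gene. Su(var)3-9 shares 352 of its 2386 exon bases, 14.8%, with eIF2gamma on the same strand, at 15262547 to 15262721 and 15263282 to 15263458, and its level per length below uses the other 2034 bases. Genes on the opposite strand covered 16.2% of the exon bases of HP1c, 16.0% of egg, 14.1% of Pof, 13.7% of Su(var)3-7, 3.01% of ADD1 and 1.08% of HP1a, and none of HP1b. The strand setting of the counting is not given in the sources used here, so over these bases reads of a gene and its opposite neighbour cannot be told apart.

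Per length, the HP1a gene was by far the highest member in every group. In wild-type males HP1a was at 84.1 ± 2.35 CPM per kb (SD, n = 3), followed by HP1c at 16.2 ± 1.48, HP1b at 11.7 ± 1.05 and Pof at 11.6 ± 1.67. Below them came egg at 7.71 ± 0.70 CPM per kb, Su(var)3-7 at 4.88 ± 0.45, Su(var)3-9 at 4.52 ± 0.52 and ADD1 at 2.95 ± 0.29. Neighbours in this order did not overlap between libraries, except HP1b with Pof and Su(var)3-7 with Su(var)3-9. In roX-KO males ADD1, at 4.85 ± 0.33 CPM per kb, lay above Su(var)3-9 at 3.96 ± 0.21 with no overlap, and Pof at 10.7 ± 0.44 above HP1b at 9.48 ± 0.27, while HP1b and egg overlapped. In wild-type females the order began with HP1a at 74.2 ± 13.6 CPM per kb and ended with ADD1 at 3.03 ± 0.88 and Su(var)3-9 at 2.03 ± 0.35. There HP1c overlapped HP1b, egg overlapped Su(var)3-7, and ADD1 overlapped Su(var)3-9.

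The spread between libraries differed by group. The median over the 8 genes of the range of log2 CPM within a group was 0.26 in wild-type males, 0.13 in roX-KO males and 0.47 in females. Over all genes tested the same medians were 0.24, 0.15 and 0.56, so the members spread about as other genes did, and the female group allowed the least precise comparisons.

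**Figure D2:**
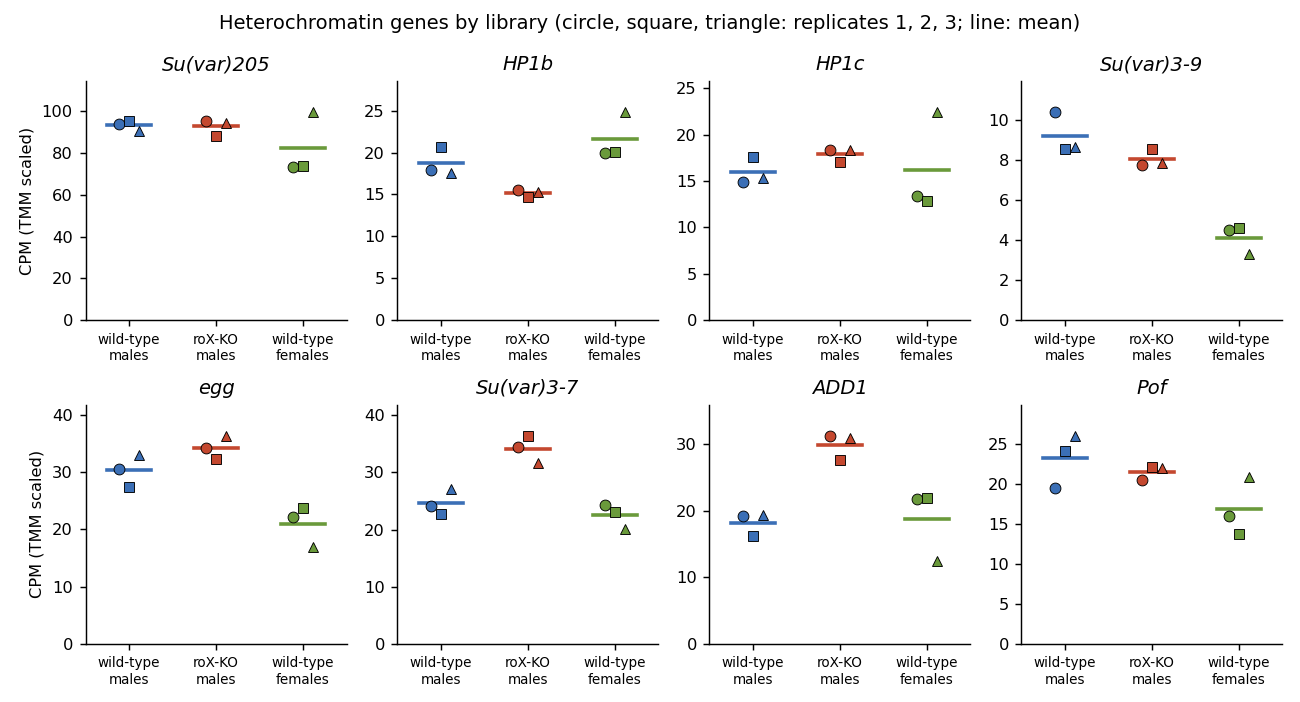
CPM of each of the 8 genes (y axes, starting at 0) in the 3 groups (x axis), with 1 point per library and a line at the group mean. ADD1 and Su(var)3-7 in roX-KO males lie above all wild-type male libraries, HP1b lies below them, and Su(var)3-9 is lowest in wild-type females.

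Between roX-KO and wild-type males, ADD1 and Su(var)3-7 rose and HP1b fell by edgeR's quasi-likelihood test (adjusted p under 0.05), and the other 5 members did not pass. That is 3 of 8 members, where 63.5% of the 11172 genes tested passed, 31.4% higher and 32.1% lower. The 3 called members are also the members whose groups did not overlap in CPM, against 69.5% of all genes. A share of 37.5% called lies below that background, and the difference was not tested. The members' median log2 fold was 0.08 against 0.02 over all genes tested.

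Between wild-type females and wild-type males, Su(var)3-9 was lower in females and no other member passed, 1 of 8 where 22.0% of 11104 genes did, 10.8% higher and 11.2% lower. The groups of 2 members did not overlap, Su(var)3-9 and egg, against 41.8% of all genes. The median log2 fold of the members was -0.15 against 0.04 over all genes. This comparison and the preceding one share the wild-type males.

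Between roX-KO males and wild-type females, Su(var)3-9, egg and Su(var)3-7 were higher and HP1b was lower in roX-KO males, 4 of 8 members where 27.2% of 11173 genes passed, 10.7% higher and 16.6% lower. The groups of 5 members did not overlap, against 54.9% of all genes, and the fifth was ADD1. The median log2 fold of the members was 0.47 against -0.01. This comparison shares libraries with each of the others.

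**Figure D3:**
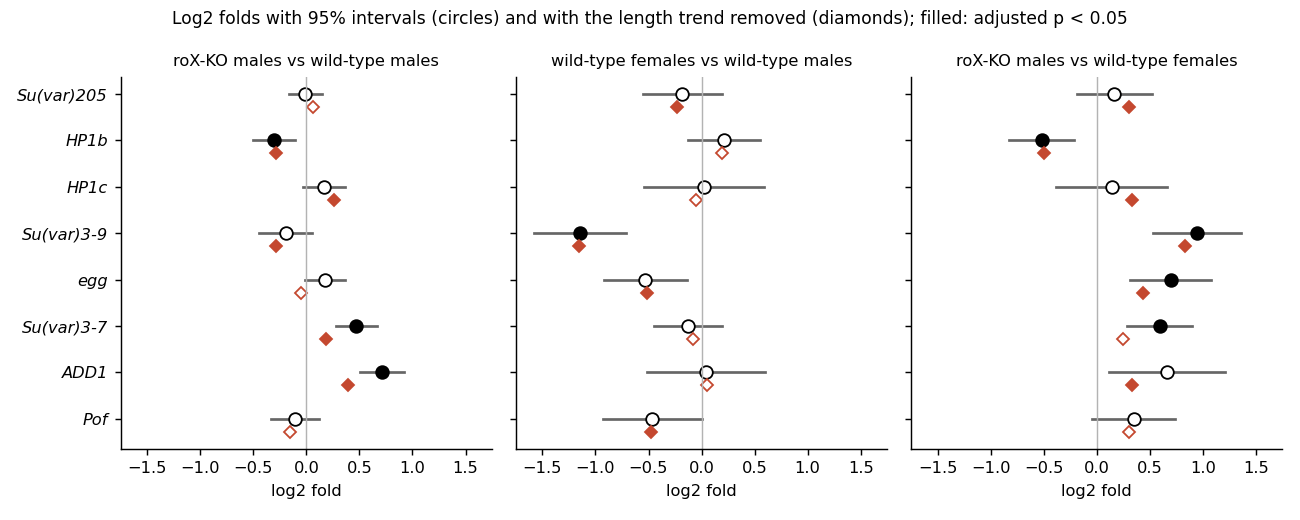
Log2 fold (x axis) of each of the 8 genes in the 3 comparisons, as circles with 95% intervals and, with the length trend removed, as diamonds; filled symbols have an adjusted p under 0.05. Between the male groups ADD1 moves from 0.71 to 0.40 and Su(var)3-7 from 0.47 to 0.19 when the trend is removed, and HP1b from -0.30 to -0.29.

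Among the readers of the mark, Su(var)205's product HP1a binds methylated lysine 9 of histone H3 at pericentromeric heterochromatin and chromosome 4. Its level was 93.8, 95.6 and 90.5 CPM in wild-type males, 95.5, 88.2 and 94.6 in roX-KO males, and 73.6, 73.6 and 99.6 in wild-type females. The male groups overlapped fully, and female libraries 1 and 2 lay below every male library while female library 3 lay above them all. Its log2 fold between roX-KO and wild-type males was -0.01, with a 95% interval from -0.16 to 0.14 (edgeR, adjusted p = 0.920). As a fold, the interval runs from 0.89 to 1.10. It was -0.18 between females and wild-type males (interval -0.55 to 0.19, edgeR adjusted p = 0.467). Without female library 3 it was -0.34 with an adjusted p of 0.00556, and with the length trend removed -0.23 with an adjusted p of 0.0289. Against females, roX-KO males stood at 0.17 and did not pass (edgeR, adjusted p = 0.441), while it passed with the length trend removed, at 0.30 (adjusted p = 0.00909), and without female library 3, at 0.31 (adjusted p = 0.000126).

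HP1b, which binds both heterochromatin and euchromatin, is the X-linked member. Its level was 17.9, 20.6 and 17.5 CPM in wild-type males, 15.5, 14.7 and 15.3 in roX-KO males, and 19.9, 20.0 and 24.8 in wild-type females. Every roX-KO library lay below every other library, and wild-type males and females overlapped. The log2 fold between roX-KO and wild-type males was -0.30 ± 0.09 (SE; edgeR, adjusted p = 0.0115), a level 0.81 of that in wild-type males. Between roX-KO males and females it was -0.52 ± 0.13 (edgeR, adjusted p = 0.0236), and between females and wild-type males 0.21 ± 0.14 (edgeR, adjusted p = 0.359). With counts scaled by library total instead of TMM, the median over all genes tested moved from 0.02 to 0.25 between the male groups, HP1b stood at -0.07 and its call was lost (edgeR, adjusted p = 0.50), where 70.4% of all genes passed. With that scaling HP1a, HP1c and egg passed as higher, at 0.22, 0.40 and 0.41 (edgeR, adjusted p = 0.0182, 0.00209 and 0.00171). The HP1b call between the male groups was also lost in 1 fit over all 9 libraries, at -0.30 (edgeR, adjusted p = 0.0757). The call against females was lost with total counts, at -0.30 (edgeR, adjusted p = 0.0807), and without any 1 of the roX-KO libraries, with adjusted p-values of 0.0998 to 0.102.

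The X as a whole was lower in roX-KO males, and HP1b lay within the spread of X genes. Of 1751 X genes tested, 58.9% were lower and 13.3% higher than in wild-type males, with a median log2 fold of -0.41 and quartiles of -0.77 and -0.01. Of the 6 tested neighbours of HP1b, 3 on each side, 5 were lower and 1 was higher. Against females, 37.3% of 1730 X genes tested were lower and 3.35% higher in roX-KO males, with a median log2 fold of -0.45. In that comparison 43.6% of X genes had a lower log2 fold than HP1b. Relative to the median of the other X genes, HP1b stood at 0.05 ± 0.06 in roX-KO males against -0.06 ± 0.14 for wild-type males on the log2 scale (SD, n = 3). The difference of 0.11 had a p of 0.4 in an exact two-sided permutation test, in which 3 libraries against 3 cannot go below 0.1. It was 0.18 without wild-type male library 2, with a p of 0.1, the smallest that 3 libraries against 2 allow, 0.0660 without library 3 and 0.0689 without library 1 (exact permutation p = 0.7 for each). Against the 641 X genes within 1.5-fold of its exon length, a comparison added after the data were seen, the difference was 0.25 with the smallest possible p of 0.1.

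HP1c acts mainly in euchromatin, where it works with the transcription factors woc and row. Its level was 14.9, 17.6 and 15.4 CPM in wild-type males, 18.3, 17.1 and 18.4 in roX-KO males, and 13.4, 12.8 and 22.4 in wild-type females. The male groups overlapped through wild-type male library 2, and female library 3 was the highest of the 9 libraries. The log2 fold between roX-KO and wild-type males was 0.17 ± 0.09 and did not pass (edgeR, adjusted p = 0.135). It passed with the length trend removed, at 0.26 with an adjusted p of 0.00538, and without wild-type male library 2, at 0.24 with an adjusted p of 0.0208, where 66.4% of all genes passed. Females and wild-type males differed by 0.02 ± 0.24, and by -0.28 without female library 3 (edgeR, adjusted p = 0.0555). Against females, roX-KO males stood at 0.14 (edgeR, adjusted p = 0.657), and passed with the length trend removed, at 0.34 (adjusted p = 0.0197), and without female library 3, at 0.43 (adjusted p = 0.000518).

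The split of RNA among the 3 HP1 genes was also followed in each library. HP1b made up 10.1%, 11.0% and 10.1% of their summed level per kb in wild-type males, 8.47%, 8.66% and 8.44% in roX-KO males, and 13.5%, 13.6% and 12.1% in wild-type females. The 3 groups did not overlap in this share, with roX-KO males lowest and females highest, and each pair of groups had the smallest possible p of 0.1 in an exact two-sided permutation test. The share of HP1a was 75.2 ± 0.12% in roX-KO males, 75.1 ± 1.31% in wild-type males and 71.4 ± 1.11% in females (SD, n = 3), and females lay below both male groups (exact permutation p = 0.1 for each). The share of HP1c was 16.3 ± 0.07% in roX-KO males against 14.4 ± 0.83% in wild-type males, also without overlap (exact permutation p = 0.1). Of 18 such tests of ratios and shares, the smallest p adjusted by Benjamini and Hochberg was 0.18, so none passed.

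Among the writers of the mark, Su(var)3-9 encodes the methyltransferase that acts mainly in pericentromeric heterochromatin. Its level was 10.4, 8.54 and 8.64 CPM in wild-type males, 7.76, 8.56 and 7.85 in roX-KO males, and 4.49, 4.59 and 3.32 in wild-type females. All female libraries lay below all male libraries, and the male groups overlapped. Females differed from wild-type males by a log2 fold of -1.15 ± 0.18 (edgeR, adjusted p = 0.00607), a level 0.45 of that in wild-type males. Between roX-KO males and females it was 0.94 ± 0.17 (edgeR, adjusted p = 0.00759). Between the male groups it was -0.19 ± 0.11 and did not pass (edgeR, adjusted p = 0.157), and it passed with the length trend removed, at -0.29 with an adjusted p of 0.0265.

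The gene that shares exon bases with Su(var)3-9 did not pass between the sexes. eIF2gamma, which encodes a translation initiation factor subunit, averaged 237 CPM in wild-type males and 196 in females, a log2 fold of -0.27 ± 0.11 (edgeR, adjusted p = 0.139). Its female libraries, at 188.5 to 207 CPM, lay below those of wild-type males, at 224 to 249. Between these groups 41.8% of all genes did not overlap. Between roX-KO and wild-type males its log2 fold was -0.17 ± 0.07 (edgeR, adjusted p = 0.0430). Whether these folds differ from those of Su(var)3-9 was not tested.

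The methyltransferase encoded by egg, the fly SETDB1, is needed for lysine 9 methylation on chromosome 4 and in piRNA-guided silencing. Its level was 30.6, 27.5 and 33.0 CPM in wild-type males, 34.3, 32.3 and 36.4 in roX-KO males, and 22.2, 23.8 and 16.9 in wild-type females. All female libraries lay below all male libraries. Against females, roX-KO males stood at a log2 fold of 0.70 ± 0.16 (edgeR, adjusted p = 0.0189), a call lost without any 1 of the roX-KO libraries, with adjusted p-values of 0.0610 to 0.0867. It was 0.43 with the length trend removed (edgeR, adjusted p = 0.00411). Females stood at -0.53 ± 0.16 against wild-type males, which did not pass (edgeR, adjusted p = 0.0613), while it passed with DESeq2 (adjusted p = 0.0228), in 1 fit over all 9 libraries (edgeR, adjusted p = 0.0174), without female library 3 at -0.40 (edgeR, adjusted p = 0.00929) and with the length trend removed at -0.51 (edgeR, adjusted p = 0.00151). Between the male groups it was 0.18 ± 0.09 (edgeR, adjusted p = 0.0963), and -0.05 with the length trend removed.

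The balance of these methyltransferase genes was lowest in females. The level of Su(var)3-9 per kb over that of egg was 0.658, 0.601 and 0.508 in wild-type males, 0.438, 0.513 and 0.418 in roX-KO males, and 0.392, 0.374 and 0.380 in wild-type females. The female libraries lay below all male libraries (exact two-sided permutation p = 0.1 against each male group, the smallest possible). The male groups overlapped (exact permutation p = 0.2). None of the 18 tests of ratios and shares passed after adjustment. The length trend was not removed from this ratio or from the shares of the HP1 genes.

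**Figure D4:**
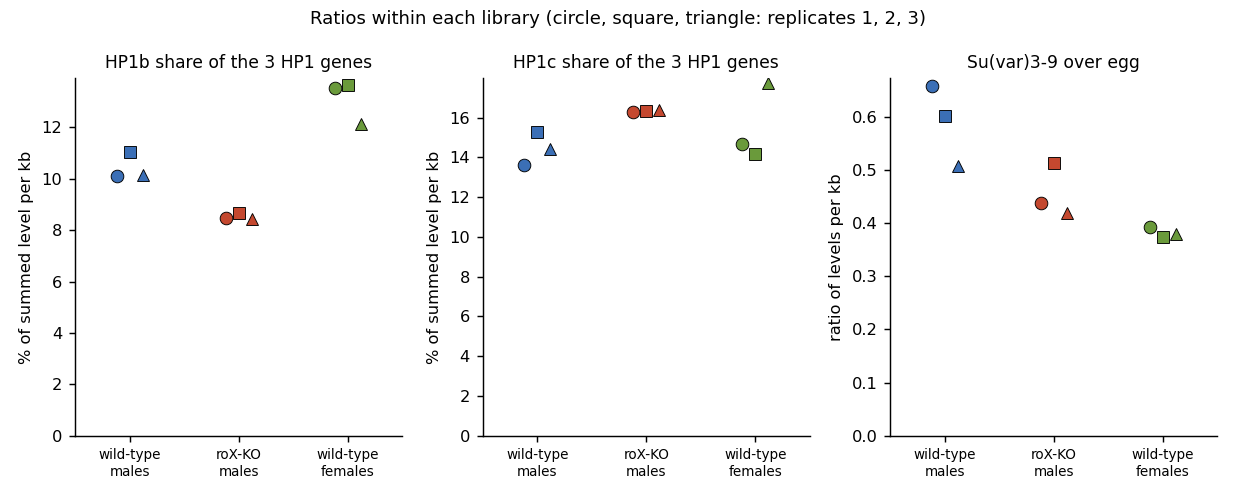
Share of HP1b and of HP1c in the summed level per kb of HP1a, HP1b and HP1c (left and middle, %) and the ratio of Su(var)3-9 to egg per kb (right), 1 point per library in the 3 groups, with axes from 0. The HP1b share separates all 3 groups, and the ratio of the methyltransferases is lowest in females at 0.374 to 0.392.

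Among the HP1 partners, Su(var)3-7 encodes a zinc finger protein that binds HP1a and Su(var)3-9. Its level was 24.1, 22.7 and 27.1 CPM in wild-type males, 34.5, 36.4 and 31.7 in roX-KO males, and 24.3, 23.0 and 20.2 in wild-type females. All roX-KO libraries were higher than all others, and the wild-type groups overlapped. In roX-KO males the gene stood at a log2 fold of 0.47 ± 0.09 against wild-type males (edgeR, adjusted p = 0.000599), or 1.39-fold. With the length trend removed it was 0.19 with an adjusted p of 0.0273. Against females it was 0.59 ± 0.13 (edgeR, adjusted p = 0.0152), and this call was lost with the length trend removed, at 0.25 (adjusted p = 0.147), and without any 1 of the roX-KO libraries (adjusted p = 0.0510 to 0.0769). Females and wild-type males differed by -0.13 ± 0.13 (edgeR, adjusted p = 0.555).

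ADD1, whose product carries the histone-binding domain of the ATRX family and associates with HP1a, changed most of the 8 members between the male groups. Its level was 19.2, 16.2 and 19.3 CPM in wild-type males, 31.2, 27.6 and 30.9 in roX-KO males, and 21.8, 21.8 and 12.5 in wild-type females. Every roX-KO library lay above every other library, and female library 3 was the lowest of all. The log2 fold between roX-KO and wild-type males was 0.71 ± 0.09 (edgeR, adjusted p = 3.06e-05), or 1.64-fold. With the length trend removed it was 0.40 (adjusted p = 9.18e-05). Against females it was 0.66 ± 0.23 and did not pass (edgeR, adjusted p = 0.0756), and it passed without female library 3 at 0.43 (adjusted p = 0.000153), with the length trend removed at 0.33 (adjusted p = 0.0151), with DESeq2 (adjusted p = 0.0316) and in 1 fit over all 9 libraries (adjusted p = 0.0261). Females and wild-type males differed by 0.04 ± 0.23 (edgeR, adjusted p = 0.922), with an interval from -0.51 to 0.60. XNP, which encodes the rest of the fly ATRX homolog, was also higher in roX-KO than in wild-type males, by 0.35 ± 0.11 (edgeR, adjusted p = 0.0166), and at 0.09 with the length trend removed it did not pass (adjusted p = 0.250).

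Cell type markers moved beside the rises of Su(var)3-7 and ADD1. Between roX-KO and wild-type males, 5 of 6 neuron markers were higher and 1 was lower, and all 6 muscle markers and all 6 cuticle markers were lower. Of 9 germline markers 3 were higher and 4 lower, and of 10 markers of dividing cells 1 was higher and 3 lower. Over all genes tested 31.4% were higher and 32.1% lower. Summed neuron markers ran from 475 to 493 CPM in roX-KO males, where wild-type males had 246 to 321. Summed muscle markers ran from 21042 to 21325 against 41967 to 43444 CPM, and summed cuticle markers from 271 to 301 against 2213 to 2635. Summed germline markers ran from 304 to 325 against 204 to 264 CPM, of which tud alone was 252 to 271 against 154 to 209. The length trend was not removed from these sums. None of these markers was at 0 in any group, and their part in the members' changes was not tested.

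Beside the lower Su(var)3-9 level in females, 7 of 10 markers of dividing cells and 7 of 9 germline markers were lower than in wild-type males. None of either list was higher, and over all genes tested 11.2% were lower and 10.8% higher. Summed markers of dividing cells ran from 140 to 143 CPM in females, 240 to 251 in wild-type males and 223 to 231 in roX-KO males. Summed germline markers ran from 141 to 220 CPM in females and 204 to 264 in wild-type males, which overlap, and from 304 to 325 in roX-KO males. Within that list, tud had 1824 to 3506 counts in females and 2558 to 3530 in wild-type males. The germline helicase gene vas had 11 to 19 counts in female libraries, 134 to 156 in wild-type males and 129 to 139 in roX-KO males. All 6 cuticle markers were lower in females as well. The part of these markers in the level of Su(var)3-9 was not tested.

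Pof encodes an RNA-binding protein that decorates chromosome 4 and stimulates its genes. Its level was 19.5, 24.2 and 26.0 CPM in wild-type males, 20.6, 22.1 and 22.1 in roX-KO males, and 16.1, 13.7 and 20.8 in wild-type females. The male groups overlapped, and 1 female library reached into the male range. The log2 fold between roX-KO and wild-type males was -0.11 ± 0.10 (edgeR, adjusted p = 0.382), with an interval from -0.34 to 0.12. Females stood at -0.46 ± 0.20 against wild-type males, which did not pass (edgeR, adjusted p = 0.148), while it passed without female library 3 at -0.64 (adjusted p = 0.00333) and with the length trend removed at -0.47 (adjusted p = 0.0431). Against females, roX-KO males stood at 0.35 ± 0.17 (edgeR, adjusted p = 0.159), at 0.51 without female library 3 (adjusted p = 0.000124) and at 0.58 with total counts (adjusted p = 0.0170).

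The chromosome that Pof coats was measured beside it. Of 92 genes of chromosome 4 tested, 51 were higher and 15 lower in roX-KO than in wild-type males, with a median log2 fold of 0.30 against 0.08 over 9286 genes of the arms. These are shares of 55.4% and 16.3%, beside 34.6% higher and 27.2% lower on the arms, and the difference was not tested. Genes of chromosome 4 are long, with a median of 3720 exon bases against 1881 on the arms, and with the length trend removed their median was 0.15 against 0.01. Between females and wild-type males 5 of the 92 genes were higher and 3 lower, or 5.43% and 3.26%, beside 10.4% and 11.4% of 9218 genes of the arms. The medians were 0.08 on chromosome 4 and 0.03 on the arms. Pof itself and egg did not pass between the male groups.

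How many members passed in the comparisons with females depended on female library 3. Without it, 4 members were lower in females than in wild-type males, HP1a, Su(var)3-9, egg and Pof, and 52.1% of all genes passed. Without it, 7 members were higher and HP1b lower in roX-KO males than in females, where 61.6% of all genes passed. With the length trend removed and all libraries kept, the same 4 members were lower in females than in wild-type males, where 44.4% of all genes passed. In the same fit of roX-KO males against females, HP1a, HP1c, Su(var)3-9, egg and ADD1 were higher and HP1b lower, where 45.9% of all genes passed.

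The authors' deposited table for the male libraries gave the same 3 calls at an adjusted p under 0.05. In the authors' deposited table the log2 fold was 0.71 for ADD1 (adjusted p = 1.48e-08), 0.47 for Su(var)3-7 (adjusted p = 0.000117) and -0.31 for HP1b (adjusted p = 0.0287). Over all genes, the authors' deposited table has 3107 higher and 3443 lower, and the edgeR fit here gave 3505 and 3588.

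Other genes of the heterochromatin machinery were taken as 4 lists of 55 genes, of which 51 could be tested. HP1e and rhi were left out by the filter on low counts, with at most 0 and 22 counts in a library. SuUR and armi had 0 counts in all libraries, and 100% and 99.6% of their exon bases are shared with another gene on the same strand, so their levels are not known from these counts. Values of list genes below are log2 folds with their SE. Between roX-KO and wild-type males 23 of the 51 were higher and 9 lower, 62.7% against the background of 63.5%, with a median log2 fold of 0.18 against 0.02 over all genes. With the length trend removed 11 were higher and 15 lower, with a median of -0.01 against -0.05, and 67.9% of all genes passed.

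Of 11 writers and erasers of histone methylation and their partners, 7 were higher and 1 lower in roX-KO than in wild-type males, 72.7% called against 63.5% of all genes, and the difference was not tested. Their median log2 fold of 0.37 was 0.08 with the length trend removed, when 3 were higher and 3 lower. Kdm4B, which did not pass between the male groups, shares 84.8% of its exon bases with genes on the same strand, so its value is uncertain. Kdm4A and Kdm3 encode demethylases. Kdm4A rose by 0.53 ± 0.12 (edgeR, adjusted p = 0.00171) and Kdm3, which shares 15.9% of its exon bases with a gene on the same strand, by 0.42 ± 0.09 (edgeR, adjusted p = 0.00152), or 0.24 with the length trend removed (adjusted p = 0.0251). HDAC1, which encodes a histone deacetylase, was the lower one, at -0.45 ± 0.07 (edgeR, adjusted p = 0.000117). In the same list, 1 gene passed between females and wild-type males, again HDAC1, at -1.54 ± 0.13 (edgeR, adjusted p = 0.000579), and it was higher in roX-KO males than in females by 1.09 ± 0.13 (edgeR, adjusted p = 0.00102). In each of these comparisons 9.09% of the list was called, against 22.0% and 27.2% of all genes. HDAC1 had 453 to 657 counts in females, 1513 to 1654 in wild-type males and 1302 to 1425 in roX-KO males, so no groups overlapped.

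Of 17 HP1 paralogs and partners tested, 6 were higher and 3 lower in roX-KO than in wild-type males, 52.9% called against 63.5% of all genes. With the length trend removed 2 were higher and 6 lower. The telomere capping gene cav, with 26.3% of its exon bases under genes of the opposite strand, rose by 0.58 ± 0.12 (edgeR, adjusted p = 0.00118) and Lhr, whose product binds HP1a, by 0.50 ± 0.18 (edgeR, adjusted p = 0.0273). The RNA-binding protein gene vig fell by 0.82 ± 0.08 (edgeR, adjusted p = 1.75e-06), and the X-linked ubiquitin receptor gene Ubqn fell by 0.73 ± 0.08 (edgeR, adjusted p = 7.43e-06). The HP1c partners row and woc stood at 0.32 ± 0.09 (edgeR, adjusted p = 0.00881) and 0.21 ± 0.12 (edgeR, adjusted p = 0.141). With the length trend removed neither passed, at 0.06 and -0.10.

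Between females and wild-type males 1 of these 17 genes was higher and 4 were lower, 29.4% called against 22.0% of all genes. The higher one was HP1D3csd, an X-linked HP1 paralog, at 1.11 ± 0.24 (edgeR, adjusted p = 0.0177), with 80 to 105 counts in females and 39 to 42 in wild-type males. The HP1 paralog gene Umbrea had 0 to 4 counts in females and 11 to 28 in wild-type males, with a fitted log2 fold of -3.50 ± 0.79 (edgeR, adjusted p = 0.0206) that rests on these few reads. For vig the value was -1.24 ± 0.19 (edgeR, adjusted p = 0.00557). Between roX-KO males and females 3 were higher and 1 lower, 23.5% called against 27.2% of all genes. Su(var)2-HP2, which encodes an HP1a-binding protein, was higher by 0.73 ± 0.14 (edgeR, adjusted p = 0.00907), but at 0.27 with the length trend removed it did not pass (adjusted p = 0.206). Umbrea was higher by a fitted 3.01 ± 0.71 (edgeR, adjusted p = 0.0182), and HP1D3csd was lower, at -1.49 ± 0.26 (edgeR, adjusted p = 0.00619).

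Of 14 other suppressors of variegation and heterochromatin proteins, 7 were higher and 2 lower in roX-KO than in wild-type males, 64.3% called against 63.5% of all genes. After removal of the length trend 4 were higher and 3 lower, and the median log2 fold moved from 0.20 to 0.07. Among the higher genes, mod(mdg4) shares 56.9% of its exon bases with genes on the same strand, so its value is uncertain. It stood at 0.22 ± 0.07 (edgeR, adjusted p = 0.0113), and at -0.21 with the length trend removed it did not pass (adjusted p = 0.0789). The list includes stwl, a chromatin gene of germline stem cells, at 0.65 ± 0.11 (edgeR, adjusted p = 0.000211) and at 0.40 with the length trend removed (adjusted p = 0.000355), and the satellite-binding gene prod, at 0.50 ± 0.08 (edgeR, adjusted p = 0.000228). The KH-domain gene Dp1 fell by 0.28 ± 0.10 (edgeR, adjusted p = 0.0290), and the replication gene Mcm10 fell by 0.28 ± 0.10 (edgeR, adjusted p = 0.0296). They stood at -0.61 (edgeR, adjusted p = 2.69e-08) and -0.43 (edgeR, adjusted p = 0.000787) with the length trend removed. With total counts both calls were lost, and 11 of the 14 were higher and 0 lower, where 70.4% of all genes passed. In females 1 of the 14 was higher than in wild-type males, prod at 0.44 ± 0.12 (edgeR, adjusted p = 0.0385), and 5 were lower. That is 42.9% called against 22.0% of all genes, and the difference was not tested. The DNA topoisomerase gene Top2 had 691 to 1052 counts in females and 1905 to 2188 in wild-type males, a log2 fold of -1.22 ± 0.14 (edgeR, adjusted p = 0.00161), and Mcm10 stood at -1.11 ± 0.17 (edgeR, adjusted p = 0.00474). Against females, roX-KO males had 7 of the 14 higher and none lower, 50% called against 27.2% of all genes, also not tested. Top2 stood at 1.32 ± 0.15 (edgeR, adjusted p = 0.00108) and the chromatin remodeller gene Acf at 0.86 ± 0.16 (edgeR, adjusted p = 0.00781), or 0.53 with the length trend removed (adjusted p = 0.00213). Beside these values, 7 of 10 markers of dividing cells were lower in females than in wild-type males, at a median log2 fold of -0.80, and 6 of 10 were higher in roX-KO males than in females, at a median of 0.60. Their part in this list was not tested.

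Of 9 genes of piRNA-guided nuclear silencing and the piRNA processing that feeds it, 7 were lower in females than in wild-type males and none was higher. That is 77.8% called against 22.0% of all genes, with a median log2 fold of -1.26 against 0.04, and the difference was not tested. The germline gene mael stood at -2.45 ± 0.24 (edgeR, adjusted p = 0.00103), with 10 to 18 counts in females and 63 to 74 in wild-type males. The piRNA nuclease gene zuc stood at -2.19 ± 0.48 (edgeR, adjusted p = 0.0201), with 2 to 11 and 26 to 35 counts. Germline markers were lower in females by a median of -1.57 on the log2 scale, and their part in this list was not tested. Between roX-KO and wild-type males 3 were higher and 3 lower, 66.7% called against 63.5% of all genes. Gasz, which anchors piRNA processing at mitochondria, rose by 0.56 ± 0.12 (edgeR, adjusted p = 0.00103), and piwi, which encodes the nuclear Argonaute protein of the pathway, by 0.51 ± 0.11 (edgeR, adjusted p = 0.00178). The lower genes were led by zuc at -0.75 ± 0.23 (edgeR, adjusted p = 0.0112) and the X-linked dynein light chain gene ctp at -0.68 ± 0.08 (edgeR, adjusted p = 1.09e-05). For zuc this rests on 17 to 24 counts in roX-KO and 26 to 35 in wild-type males. With total counts 3 of the list were higher and 1 lower, where 70.4% of all genes passed. Against females, roX-KO males had 5 of the 9 higher, where 10.7% of all genes were, with mael at 1.94 ± 0.31 (edgeR, adjusted p = 0.00415) and piwi at 1.77 ± 0.15 (edgeR, adjusted p = 0.000285). Of 9 germline markers, 6 were higher and none lower in roX-KO males than in females, at a median of 1.67, and their part here was not tested either.

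Over the 4 lists together, 2 of the 51 genes were higher and 17 lower in females than in wild-type males, 37.3% against the background of 22.0%. Against females, 16 were higher and 1 was lower in roX-KO males, 33.3% against 27.2%. Both comparisons use the same female libraries, and the differences from the background were not tested. Of the 17 genes lower in females than in wild-type males, 7 were from the piRNA list. There 77.8% of the piRNA list was called, against 9.09% of the writers and erasers. The lists were chosen with earlier results of these data known. Without wild-type male library 2 the count between females and wild-type males was 0 higher and 8 lower, where 11.2% of all genes passed, and without female library 3 it was 5 higher and 22 lower, where 52.1% passed.

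**Figure D5:**
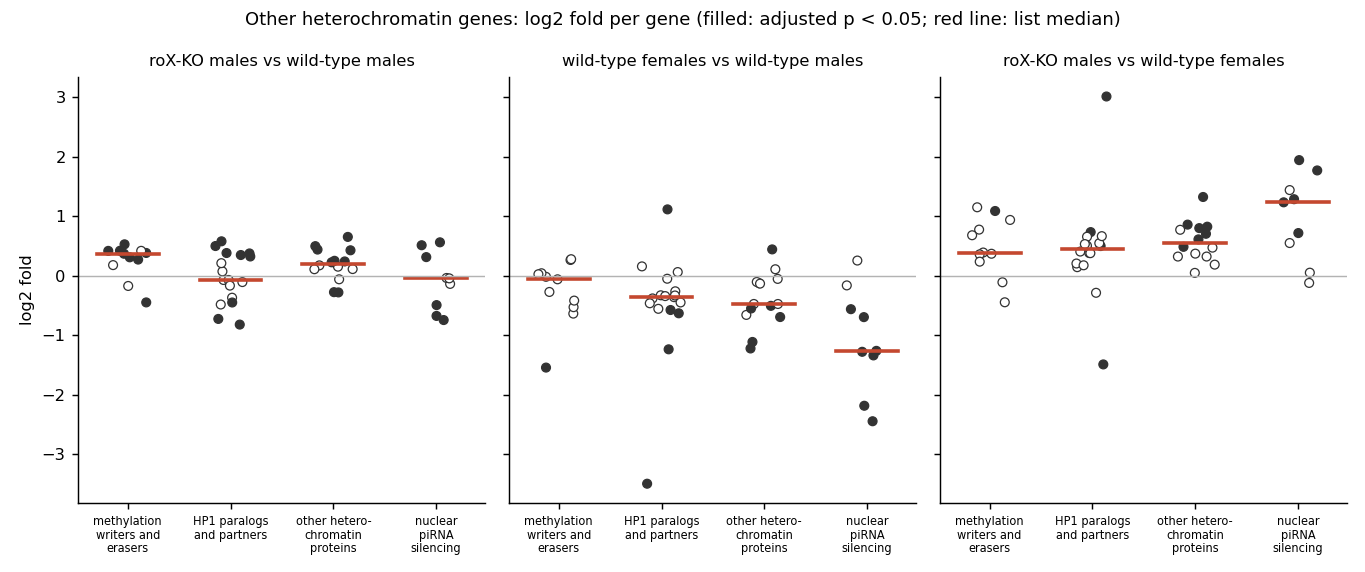
Log2 fold (y axis) of each tested gene in the 4 lists (x axis) for the 3 comparisons; filled points have an adjusted p under 0.05 and red lines mark list medians. The piRNA list lies lowest between females and wild-type males, at a median of -1.26, and the writers and erasers lie highest between the male groups, at 0.37.

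Across the 9 libraries, the genes with the nearest profile to each member were found among 10053 genes by the root-mean-square difference of centred log2 CPM. The profiles keep the length trend of each library. The nearest gene to HP1b was CG7910 on 3R, at 0.03, and the next was Ak1 on 3L. Most genes tested are autosomal, with 1751 of 11172 on the X between the male groups, so autosomal neighbours do not set HP1b apart from X genes. For ADD1 they were Sara, at 0.05, and CaMKI on chromosome 4, at 0.06. Su(var)3-7 had CG6695 and the SUMO ligase gene Su(var)2-10 beside it, both at 0.08, and egg had CG3408 at 0.05 and the remodeller gene Iswi at 0.06. For HP1a they were Nepl11 and Sqor, for HP1c CG14464 and GatA, for Su(var)3-9 CG13654 and indra, and for Pof CG10431 and CG14174, at 0.04 to 0.09. These genes were picked for having the smallest differences, so the small values follow from the choice. The members' own ranges over the 9 libraries, a different measure, ran from 0.44 in HP1a to 1.62 in Su(var)3-9.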

How the data were processed

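For each of the 9 libraries the authors deposited raw counts of reads per gene. A second deposited table covers the 6 male libraries and holds FPKM, a mean signal per gene, log2 fold changes, a test score and p-values, per the file headers. The submitters' processing notes name dm6, HISAT2 2.2.1, SAMtools 1.13, HTSeq 2.0.2 and DESeq2 without saying what each did, and the strand setting used is not given in the sources used here. An Ensembl dm6 annotation supplied symbols, positions and exon lengths for 17556 of 17611 IDs. Lines of unassigned reads were left out of library sizes.

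For each comparison a fit was made to its 6 libraries with edgeR 4.0.16 under R 4.3.3 (filterByExpr with minimum count 10 and minimum total 15, TMM, robust quasi-likelihood F-test). Benjamini-Hochberg adjustment ran over all genes tested, and a gene is called at an adjusted p under 0.05. Intervals are at 95%. The length trend was a loess of log2 CPM deviation (prior count 2) on log2 exon length over the arms, with a span of 0.5, entered as offsets. Alternatives were DESeq2 1.42.0, other scalings, no filter, 1 fit over 9 libraries, a replicate block, each library left out, and limma 3.58.1 on the deposited FPKM with pseudocounts of 0.1 and 1. Ratios within libraries were compared with exact permutation tests.

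The members and lists were chosen with earlier results of these data known. Besides the members, roX1 and roX2, the named genes are up to 2 called genes with the largest rise and 2 with the largest fall per list and comparison, and for each member the 2 genes with the nearest profile among those with mean log2 CPM of at least 1. XNP, woc, row, eIF2gamma, vas, mod(mdg4) and Kdm4B were named after their values were seen.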

Additional observations from a re-analysis of the deposited data

How the results depend on the processing

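Between the male groups, total-count scaling gave 5467 genes higher and 2395 lower in all, with 5 members higher and 0 lower. The 1 fit over all 9 libraries gave 2040 genes higher and 2423 lower, 0 members lower and 12 pathway genes called. With the length trend removed 2 members were lower, where 4394 genes were lower in all. With the replicate block added, 2 members and 4428 genes were lower. Between females and wild-type males, the replicate block gave 482 genes higher and 615 lower and 9 pathway genes. Removing the length trend there gave 2497 and 2434 genes, 4 members lower and 30 pathway genes, and with the block 1940 and 2010 genes and 3 members. DESeq2 and the fit over 9 libraries gave 2 members lower, Su(var)3-9 and egg. Leaving out 1 library gave 430 to 2927 genes higher, 616 to 2924 lower, 1 to 4 members lower and 8 to 27 pathway genes. Between roX-KO males and females, the fit over 9 libraries gave 1871 genes higher and 26 pathway genes, and removing the length trend 1882 higher, 3250 lower, 5 members higher and 29 pathway genes, or 2953 lower, 5 members and 28 pathway genes with the block. The replicate block and total counts each gave 0 members lower, with HP1b at -0.52 under the block (edgeR, adjusted p = 0.0652). Leaving out 1 library gave 524 to 3384 genes higher, 1014 to 3566 lower, 1 to 7 members higher, 0 to 1 lower and 9 to 41 pathway genes. Counts of members given here without the number of all genes called are not results about the members. The cause of these shifts was not tested.

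Some values near 0 changed sign. Between the male groups, total counts put HP1a at 0.22, Su(var)3-9 at 0.0370 and Pof at 0.12. Removing the length trend put HP1a at 0.0672 and egg at -0.0524, and with the block at 0.0667 and -0.0524. Leaving out 1 library put HP1a between -0.0467 and 0.0271. Between females and wild-type males, HP1c was at -0.0212 with the block, -0.0558 with the length trend removed and -0.0596 with both, and between -0.28 and 0.15 with 1 library left out. ADD1 there ranged from -0.10 to 0.26 with 1 library left out.

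Replicate numbers did not pair libraries. Correlations of deviations between same-numbered libraries were -0.04 to 0.01 between the male groups, 0.53, -0.72 and -0.58 between females and wild-type males, and 0.00 to 0.07 between roX-KO males and females. Counting depth was near equal in all libraries, and of the members Su(var)3-9 rests on the fewest reads.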
